A study of Mus musculus with 7 samples.

Results

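The amino acid transporter families examined here were all genes whose GENCODE vM1 symbol begins with *Slc1a*, *Slc3a*, *Slc6a*, *Slc7a*, *Slc36a*, *Slc38a* or *Slc43a* followed by a number, with pseudogenes left out. Of 37310 genes in the count table, 63 gene models met this rule, and 46 of them also reached 5 or more counts in 4 or more of the 7 libraries. These 46 members are among the 17175 genes that were tested. The remaining 17 had too few counts and were described by their counts only. The rule used symbols and a count minimum, not the difference between genotypes, and it takes in *Slc7a6os*, which lies beside *Slc7a6* on the opposite strand and is not a transporter. It also takes in 2 gene models named *Slc38a9* (ENSMUSG00000047789 and ENSMUSG00000069056), which lie 754 bases apart.

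RNA of the whole mammary gland was sequenced at lactation day 1 (L1) in 3 WT and 4 *Tardbp* KO libraries from female C57BL/6 mice. *Tardbp* encodes TDP-43, an RNA-binding protein. *Tardbp* KO mice were *Tardbp* fl/fl with WAP-Cre, in which Cre recombinase is driven by the promoter of *Wap*, a milk protein gene, in luminal epithelial cells from mid pregnancy, and exons 2 and 3 are deleted. The controls, called WT here, carried WAP-Cre as well, with *Tardbp* wt/wt in place of *Tardbp* fl/fl. The age of the mice was not given in the sources used here, and other cells of the gland keep *Tardbp*. In whole-gland RNA, fewer cells of a type and less RNA per cell cannot be told apart. Nothing beyond separate library labels says how the mice of a group were related, so the p-values measure the spread between these libraries.

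Libraries held between 36007737 and 42811337 counts, of which the members took between 0.193% and 0.248%. Levels of the same gene are compared between libraries in CPM, the counts scaled to a common library size with TMM factors between 0.782 and 1.23. Levels of different genes are compared in TPM, which also divides by gene length and is not TMM scaled, so that a difference between genotypes can differ in sign between CPM and TPM. Where values of single libraries are listed, they stand in the order of the replicate numbers, WT before KO. The mean level of *Tardbp* itself was 186 CPM in WT (SD 32.5, n = 3) and 187 CPM in *Tardbp* KO libraries (SD 28.1, n = 4), so that gene-level counts do not show the deletion of 2 exons, and the genotypes are those of the labels. Of 6 markers of secretory luminal cells (caseins, *Wap*, *Lalba* and *Btn1a1*), all 6 were lower in every KO library than in every WT library, with summed levels from 230490 to 335017 CPM in WT and from 80742 to 161078 CPM in KO libraries. By qRT-PCR, the study reported several milk protein genes as unaffected by *Tardbp* loss. General markers of luminal epithelium summed to 2887 ± 332 CPM in WT and 3207 ± 496 CPM in KO libraries (SD). Of these 6 markers, 2 were higher and 1 lower in KO libraries without overlap. Summed lymphocyte markers (12 of 12 detected) lay between 41.9 and 63 CPM in WT libraries and at 449, 75.1, 602 and 133 CPM in KO libraries. Every KO sum was above every WT sum, so fits with these markers as a covariate cannot tell lymphocyte content and genotype apart. Summed myeloid markers (7 of 7 detected) lay between 390 and 1510 CPM in WT and between 1079 and 2635 CPM in KO libraries. Lane 4 was the only lane that held both genotypes, with WT replicate 2 and KO replicates 3 and 4. Log2 fold changes given for lane 4 alone are differences in mean log2(CPM + 1), not fitted values. The added 1 pulls them towards 0 in genes of low level.

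Amino acid transporters bring the building blocks of milk protein from blood into the alveolar epithelium. Sodium-coupled carriers of the Slc38 family concentrate small neutral amino acids in the cell, and exchangers of the Slc7 family, bound to a heavy chain of the Slc3 family, trade them for essential amino acids such as leucine. Slc36 and some Slc38 proteins work at the lysosome, where the amino acid supply is sensed. TDP-43 binds UG repeats in RNA, and ATF4, the transcription factor of the amino acid response, binds a composite element in promoters of several transporter genes.

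For each gene the longest annotated coding transcript was searched for runs of 3 or more UG units. Such a run was present in 39 of 46 members (84.8%) and in 71.5% of the 15108 tested genes with a transcript. Member transcripts had a median length of 3561 bases against 2908 bases for all of these genes, and the counts were not corrected for length. In 7 members (15.2%) the longest run had 6 or more units, compared with 6.33% of all genes with a transcript, and in each of these 7 it lay in the 3′ UTR. These runs are shown because they are the longest UG repeats of the families, read 5′ to 3′ from GENCODE vM1 transcripts of NCBIM37, with the repeat in capitals. For the first 5, the 10 bases before the run and its first 20 bases are given.
Slc7a11: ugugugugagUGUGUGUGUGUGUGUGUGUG
Slc7a2: agaucuggagUGUGUGUGUGUGUGUGUGUG
Slc36a1: cucuggguuaUGUGUGUGUGUGUGUGUGUG
Slc43a2: uuggccaggcUGUGUGUGUGUGUGUGUGUG
Slc1a2: ucugccuuucUGUGUGUGUGUGUGUGUGUG
Slc6a8: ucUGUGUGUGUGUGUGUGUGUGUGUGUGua
Slc6a2: uccuagguUGUGUGUGUGUGUGcgcgcgcg

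In full these runs held 27 UG units in *Slc7a11*, 24 in *Slc7a2* and in *Slc36a1*, 23 in *Slc43a2*, 22 in *Slc1a2*, 13 in *Slc6a8* and 7 in *Slc6a2*. The fitted log2 fold change (*Tardbp* KO over WT) was above 0 in 6 of these 7 members and below 0 in 1, *Slc7a2*, with a median of 0.33. Of the 6 above 0, *Slc1a2* and *Slc6a2* averaged only 13 and 28 counts a library, and *Slc6a8* had a log2 fold change of 0.03. Among the other 39 members 21 were above 0 and 18 below, with a median of 0.11. The 956 tested genes with a run of 6 or more units had a median of 0.04, with 521 above 0 and 435 below. Over the 46 members, the log2 fold change and the count of UG units in runs had a Spearman's rho of 0.04, a description across genes that share the same libraries.

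The ATF4-type composite element was searched as TGATGNAA on both strands, from 250 bases before to 50 bases after each start, in RefSeq promoters of GRCm38.p6. Promoter entries matched 30 of the 45 member symbols. The element was found in 3 of these 30 (10%), in 4.51% of all 27025 genes of the table, in 2.89% of the tested genes with an entry, and in 7 of 21 genes (33.3%) of a list of amino acid response genes. The matches are shown because they are the ones found in the members, each as 30 bases 5′ to 3′ on the strand of the gene, with the element in capitals, from promoters at chr11:20332664-20332963 (*Slc1a4*), chr3:50443564-50443863 (*Slc7a11*) and chr14:54417653-54417952 (*Slc7a7*), all on the minus strand.
Slc1a4: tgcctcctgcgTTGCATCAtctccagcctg
Slc7a11, first match: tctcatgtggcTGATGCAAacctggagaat
Slc7a11, second match: acctggagaatTTGCATCAtcatgcagccc
Slc7a7: tagaagcTGATGCAAcagcttccccgaggg

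A second *Slc7a7* promoter entry, at chr14:54417895-54418194, held a further match. The 3 genes did not share a direction in the counts. Fitted log2 fold changes were −0.37 for *Slc1a4*, which encodes the serine and alanine exchanger ASCT1, 0.61 for *Slc7a11*, which encodes the cystine exchanger xCT, and −0.37 for *Slc7a7*, which encodes y+LAT1, and none passed a test. The members without an entry were *Slc1a5*, *Slc36a2*, *Slc38a1*, *Slc38a3*, *Slc43a3*, *Slc6a2*, *Slc6a6*, *Slc6a7*, *Slc6a8*, *Slc6a15*, *Slc6a18*, *Slc7a2*, *Slc7a3*, *Slc7a4* and *Slc7a5*.

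The members spanned a wide range of levels per length at L1. Averaged over the 7 libraries, 3 members stood at 100 TPM or more, 17 between 10 and 100 TPM, 12 between 1 and 10 TPM and 14 under 1 TPM. The 5 highest members carried between 59.2% and 67.7% of all member TPM in each library. *Slc3a2*, the heavy chain 4F2hc (CD98), stood first with 175 ± 38.9 TPM (SD, n = 3) in WT and 297 ± 64.9 TPM (SD, n = 4) in KO libraries. Its light chain *Slc7a5* (LAT1), which carries large neutral amino acids, followed with 219 ± 54.1 and 180 ± 6.15 TPM. *Slc1a5* (ASCT2), an exchanger of glutamine and small neutral amino acids, had 108 ± 49.7 and 172 ± 53.7 TPM. Next came *Slc38a2* (SNAT2), a sodium-coupled carrier of small neutral amino acids, with 119 ± 38.5 and 80.8 ± 23.1 TPM. The ranges of the 3 highest members overlapped across the libraries, and their order is that of the means.

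**Figure D1:**
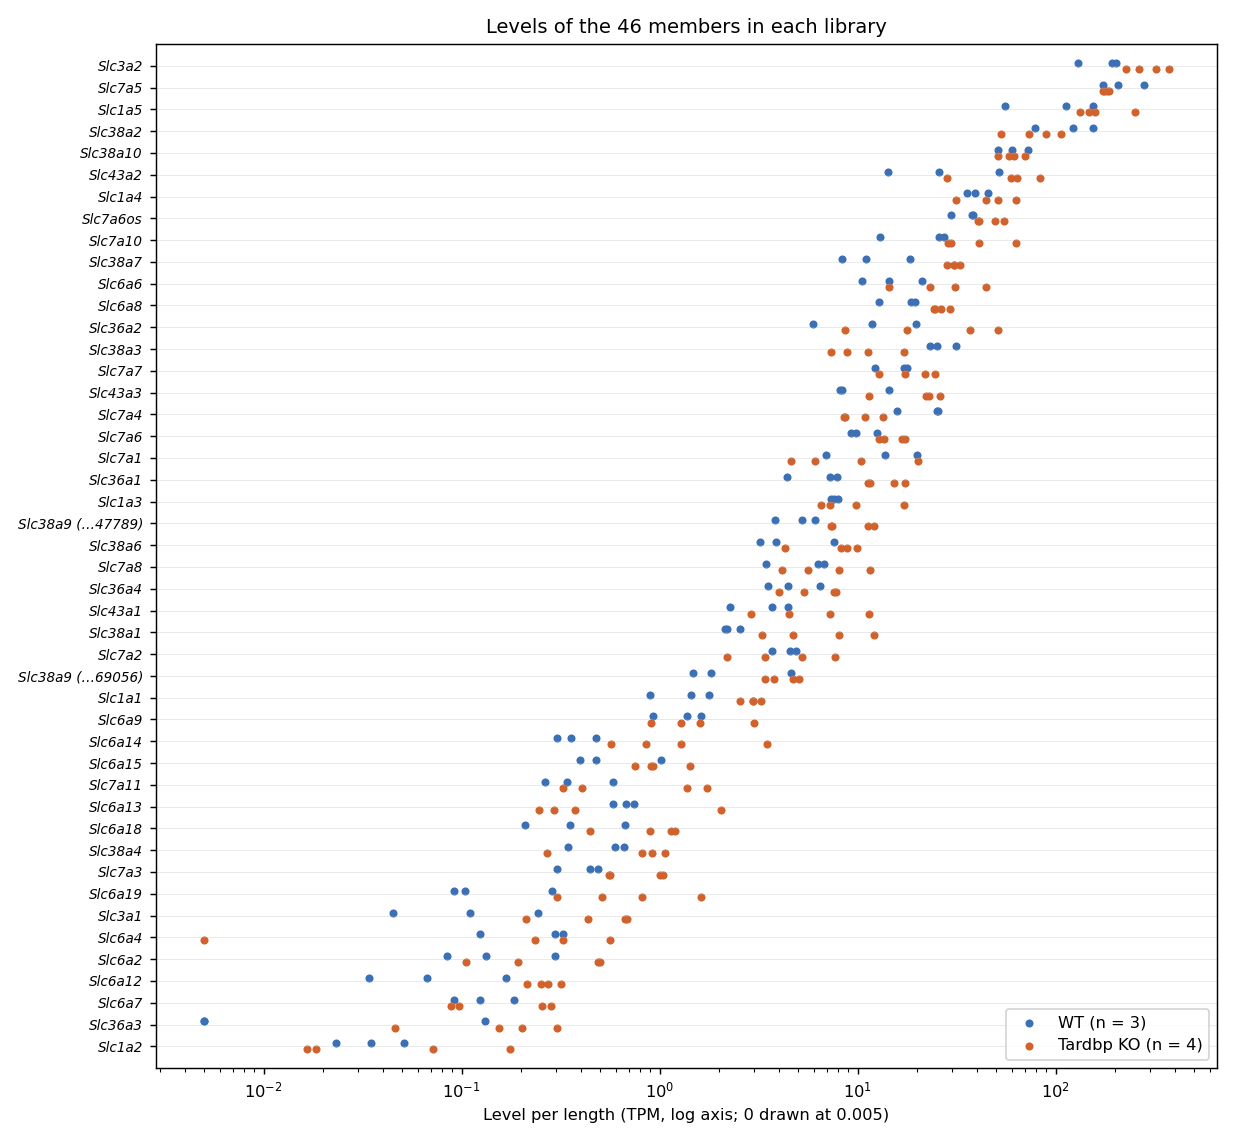
Level per length (TPM, log axis) of the 46 members, sorted by their mean, with 1 point for each WT library (blue, n = 3) and each *Tardbp* KO library (orange, n = 4). *Slc3a2*, *Slc7a5* and *Slc1a5* lie at the top, and 14 members average under 1 TPM.

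Below these, *Slc38a10*, an orphan, had 61.3 ± 10.7 TPM in WT and 60.3 ± 7.77 TPM in KO libraries. *Slc43a2* (LAT4), a facilitator of large neutral amino acids, had 30.7 ± 19.3 and 58.7 ± 22.8 TPM, and *Slc1a4* had 40.2 ± 5.03 and 47.6 ± 13.1 TPM. At the other end, *Slc1a2* (GLT-1), the main glutamate carrier of astrocytes, averaged 0.0365 ± 0.0141 TPM in WT libraries. The Slc6 members with the highest mean over the 7 libraries were the taurine carrier *Slc6a6*, with 15.3 ± 5.35 TPM in WT and 28.3 ± 12.7 TPM in KO libraries, and the creatine carrier *Slc6a8*, with 17 ± 3.63 and 26.1 ± 2.3 TPM. *Slc36a3*, an orphan of the proton-coupled family, had 6, 0 and 0 counts in WT libraries and 12, 6, 8 and 2 counts in KO libraries. Among the 17 gene models under the count minimum, *Slc6a5*, *Slc6a11* and *Slc7a12* had 0 counts in every library, and the highest count of any other was 32, for *Slc6a17* in WT replicate 3.

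The comparison of *Tardbp* KO with WT asks which transporters change when TDP-43 is lost from the lactating epithelium. At the limits that the study's methods give (adjusted p under 0.01 and absolute log2 fold change above 1), the quasi-likelihood (QL) test of edgeR, adjusted by Benjamini-Hochberg over all tested genes as are all adjusted p given here, called 0 of 46 members, and 0% of all genes tested. At these limits the exact test of edgeR called 3 members lower in KO libraries, *Slc38a3*, *Slc7a4* and *Slc38a2*, where it called 1.43% of all genes lower. It called 0 members higher, against 1.04% of all genes. DESeq2's Wald test with these limits also called 3 members lower, against 1.62% of all genes, and 0 higher, against 1.68%. At an unadjusted quasi-likelihood p under 0.05, 5 members were lower and 5 higher, against 10.7% of all genes lower and 10.7% higher, close to the share among the members (10.9% each). At an adjusted p under 0.10 without a fold limit, 4 members were lower, against 3.2% of all genes, and 0 higher, against 2.21%. In 5 members every KO library lay below every WT library, against 9.59% of all genes, and in 1 member every KO library lay above, against 9.07%. The median log2 fold change was 0.11 over the members and 0.05 over all genes tested, with 19 members below 0 and 27 above. Of the 14 members under 1 TPM, 4 were below 0 and 10 above. The count minimum can be met by the 4 KO libraries alone but not by the 3 WT libraries alone.

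**Figure D2:**
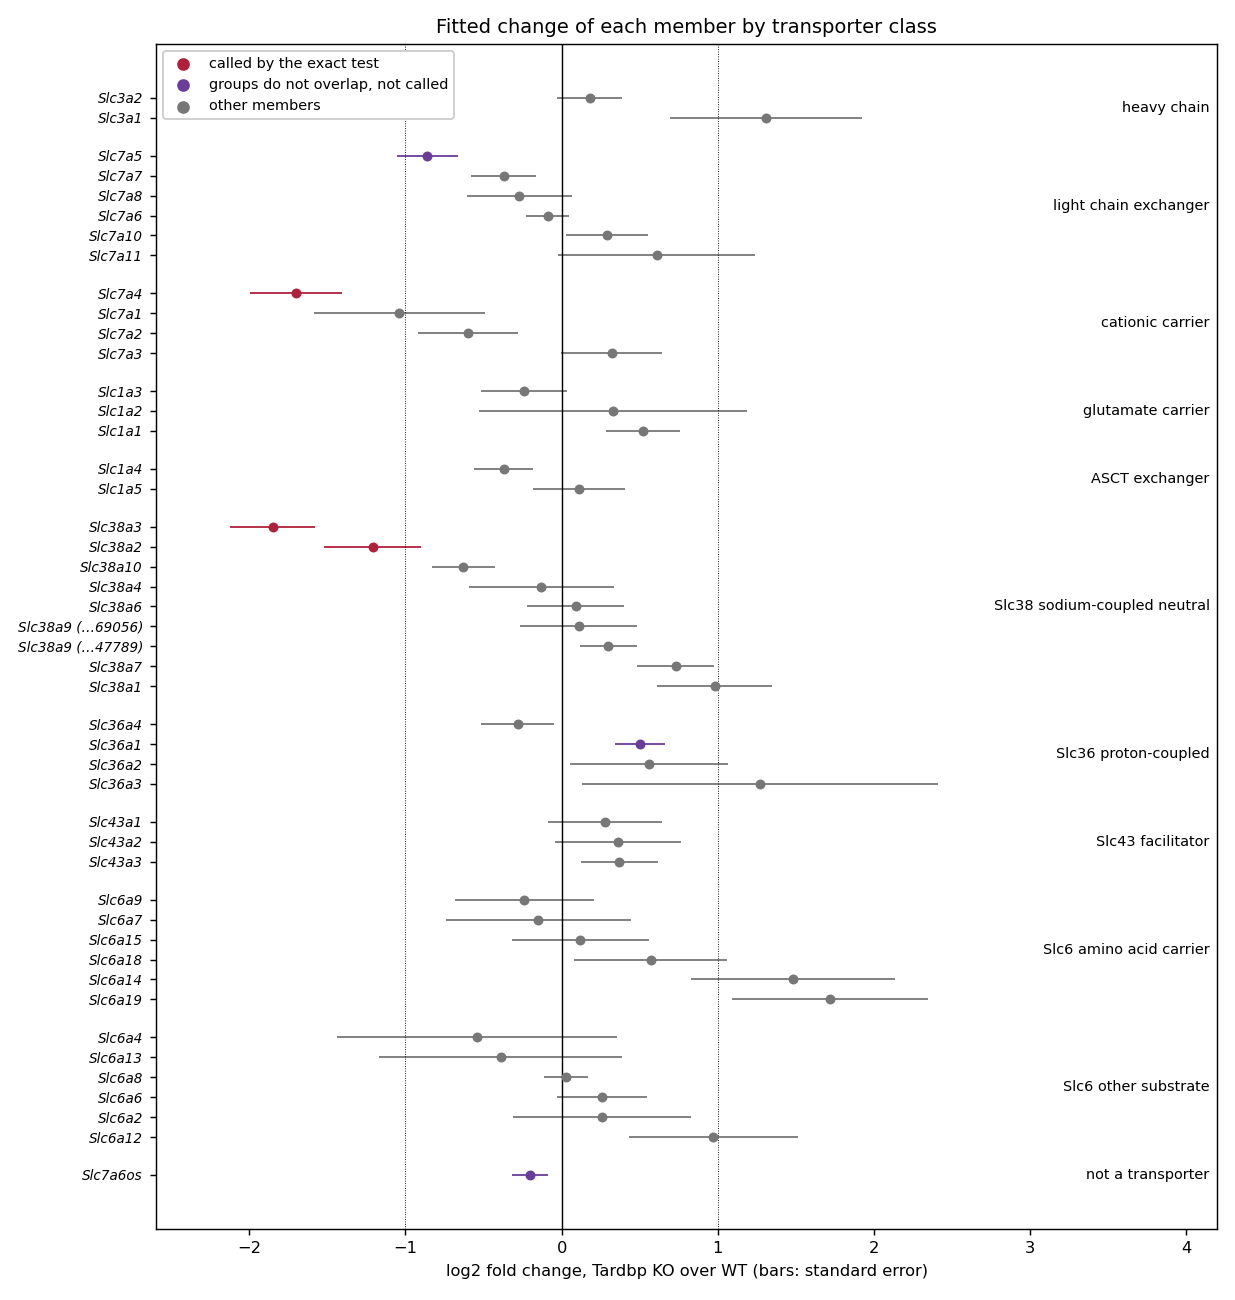
Fitted log2 fold change (*Tardbp* KO over WT) of each member from edgeR's quasi-likelihood fit, by transporter class, with bars for the standard error and dotted lines at −1 and 1. The 3 members called by edgeR's exact test (red) lie between −1.85 and −1.21, and purple marks the 3 further members whose libraries did not overlap between genotypes.

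Sodium-coupled carriers of the Slc38 family held 2 of the 3 members called by the exact test. Of the 9 gene models of this family, 4 had log2 fold changes below 0 and 5 above, between −1.85 and 0.98.

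*Slc38a3* (ENSMUSG00000010064, minus strand of chromosome 9 from 107552970 to 107569705, NCBIM37) encodes SNAT3, a system N carrier of glutamine and histidine. It had 56.5, 49.8 and 61.7 CPM in WT libraries and 11.1, 22, 10.3 and 18.7 CPM in KO libraries. Every KO value was under every WT value, and KO replicates 1 and 3 were the lowest. The log2 fold change was −1.85 (standard error, SE, 0.271), with an adjusted p of 0.0517 in edgeR's QL test and 3.01e-07 in edgeR's exact test. The 2-sided exact permutation test gave 0.0286, the smallest p that 3 libraries against 4 allow. Members whose groups do not overlap were named for that, and this p largely follows from it. It is therefore no further support for any of them. The KO mean was 27.7% of the WT mean. With KO replicates 1 and 3 left out, the 2 libraries with the most lymphocyte marker counts, the log2 fold change was −1.46 and the adjusted p of edgeR's exact test 1.09e-05, but 0.311 in edgeR's QL test. With the mean lymphocyte marker level as a covariate, *Slc38a3* had a log2 fold change of −1.18 (unadjusted p = 0.000576 and adjusted p = 0.549 in edgeR's QL test). In that fit 8.91% of all genes tested had an unadjusted p under 0.05, against 10.7% lower and 10.7% higher without the covariate. The high adjusted p therefore does not decide whether the difference remains. In lane 4 alone the log2 fold change of *Slc38a3* was −1.77.

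*Slc38a2* (ENSMUSG00000022462, minus strand of chromosome 15 from 96517825 to 96530129) is the SNAT2 gene, a known target of the amino acid response. Its levels were 518, 211 and 329 CPM in WT libraries and 185, 187, 117 and 120 CPM in KO libraries. The ranges were separate, but WT replicate 2 was close to KO replicates 1 and 2, and WT replicate 1 was far above the other WT libraries. Fitted as a log2 fold change, the difference was −1.21 (SE 0.312, adjusted p = 0.0931 in edgeR's QL test and 0.0075 in its exact test, exact permutation p = 0.0286). The call of the exact test was lost when any of WT replicates 1 and 3 or KO replicates 3 and 4 was left out, with log2 fold changes of −0.83, −1.26, −1.11 and −1.14 and adjusted p from edgeR's exact test of 0.147, 0.049, 0.0608 and 0.0271. It was also lost with library size as the only scaling (log2 fold change −0.81, adjusted p = 0.0515 in edgeR's exact test) and with KO replicates 1 and 3 both left out (adjusted p = 0.122). With the lymphocyte covariate *Slc38a2* had a log2 fold change of −1.14 (unadjusted p = 0.0431 and adjusted p = 0.554 in edgeR's QL test).

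*Slc38a1*, the SNAT1 gene, is the other widely expressed system A carrier and lies 44.5 kb from *Slc38a2* on the same strand of chromosome 15. Unlike *Slc38a2*, it had higher values in 3 of 4 KO libraries, with 13.3, 10.4 and 12.4 CPM in WT libraries and 30.2, 10.4, 35 and 19.3 CPM in KO libraries. KO replicate 2 was at the level of the lowest WT library, so the groups overlapped. The log2 fold change was 0.98 (SE 0.37, adjusted p = 0.177 from edgeR's QL test). The order of the KO libraries was that of the summed lymphocyte markers, 75.1 CPM in replicate 2, 133 CPM in replicate 4, 449 CPM in replicate 1 and 602 CPM in replicate 3. With the mean lymphocyte marker level as a covariate the log2 fold change was −0.21, and with KO replicates 1 and 3 left out it was 0.31. The part of lymphocytes in the *Slc38a1* values was not tested.

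Per length, *Slc38a2* made up 97.5% ± 0.653 (SD, n = 3) of the TPM of the system A genes (*Slc38a1*, *Slc38a2* and *Slc38a4*) in WT libraries and 90.9% ± 4.66 (SD, n = 4) in KO libraries. Their sum was 122 ± 38.7 TPM in WT and 88.6 ± 22.9 TPM in KO libraries.

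*Slc38a7* encodes SNAT7, which moves glutamine out of lysosomes. It had 24.9, 44.2 and 26.8 CPM in WT libraries and 56.5, 48.2, 40.6 and 67.2 CPM in KO libraries. KO replicate 3 was below WT replicate 2, and the other 3 KO libraries were above all WT libraries. Its log2 fold change was 0.73 (SE 0.247, unadjusted p = 0.016 and adjusted p = 0.145 in edgeR's QL test), and in lane 4 alone it was 0.23.

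*Slc38a10* had 278, 190 and 269 CPM in WT and 199, 148, 129 and 160 CPM in KO libraries, and WT replicate 2 was below KO replicate 1. Its log2 fold change was −0.63 (SE 0.201, adjusted p = 0.135 in edgeR's QL test). The remaining Slc38 gene models, *Slc38a4*, *Slc38a6* and both named *Slc38a9*, a lysosomal arginine sensor, had log2 fold changes between −0.13 and 0.30, and their groups overlapped.

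**Figure D3:**
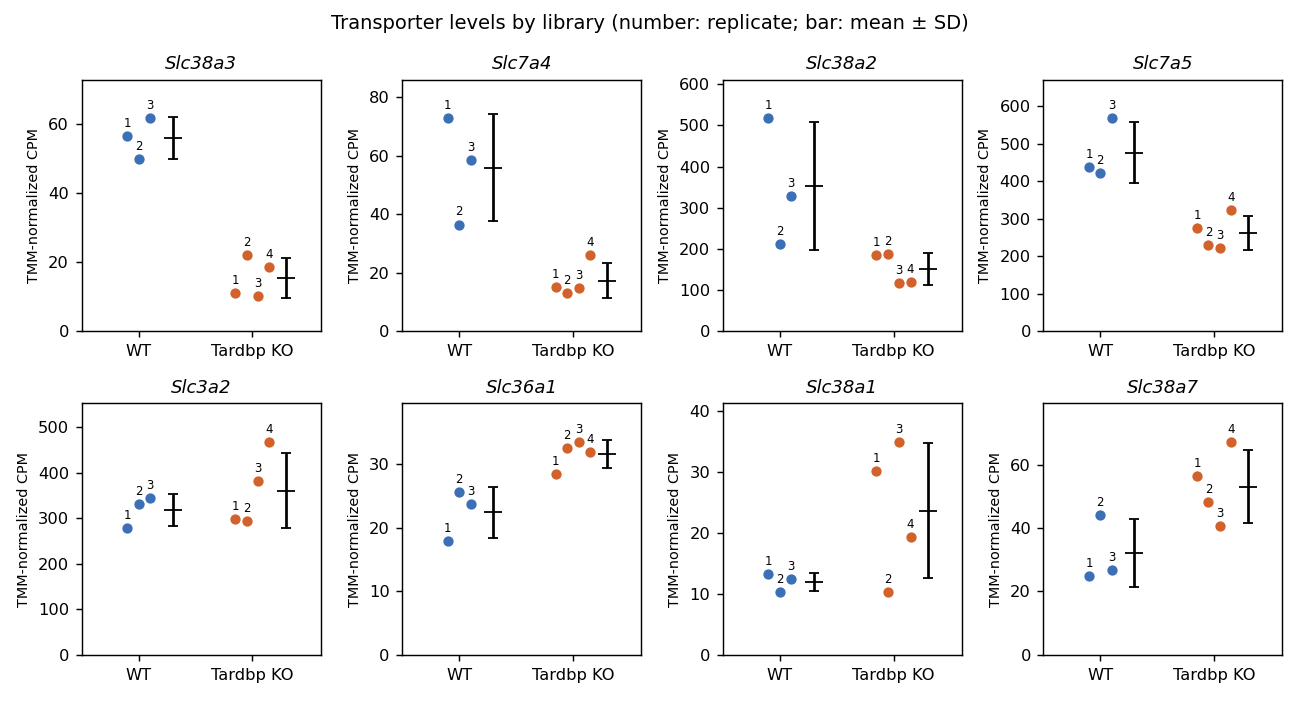
TMM-normalized CPM of 8 members in each library (numbers are replicates, black bars the mean ± SD, n = 3 WT and n = 4 *Tardbp* KO). In *Slc38a3*, *Slc7a4*, *Slc38a2* and *Slc7a5* all KO points lie under all WT points, in *Slc36a1* above, and in *Slc3a2*, *Slc38a1* and *Slc38a7* the groups overlap.

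Cationic amino acid carriers of the Slc7 family take up arginine and lysine. Of 4 members in this class 3 had log2 fold changes below 0. *Slc7a4* (ENSMUSG00000022756, minus strand of chromosome 16 from 17572111 to 17577091), a member of this branch without a settled substrate, had 72.9, 36.5 and 58.4 CPM in WT libraries and 15.2, 12.9, 14.9 and 26.1 CPM in KO libraries. Every KO library lay below every WT library, and 3 of the 4 KO libraries lay within a narrow range. This was a log2 fold change of −1.70 (SE 0.295, adjusted p = 0.0687 in edgeR's QL test and 2.67e-05 in its exact test, exact permutation p = 0.0286). With any 1 library left out the adjusted p of the exact test was at most 0.00414, and with KO replicates 1 and 3 left out it was 0.024 at a log2 fold change of −1.52. The lymphocyte covariate gave *Slc7a4* a log2 fold change of −1.62 (adjusted p = 0.549 in edgeR's QL test). In lane 4 alone the log2 fold change was −0.86. Exons of *P2rx6* on the opposite strand cover 13.9% of the exon bases of *Slc7a4*, where reads cannot be assigned to either gene and were left out of the counts.

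*Slc7a1* (CAT1), the general arginine and lysine carrier, had 108, 30.3 and 59.8 CPM in WT libraries and 67.1, 17.4, 27.1 and 17.1 CPM in KO libraries. The groups overlapped, because KO replicate 1 exceeded WT replicates 2 and 3. With this spread the log2 fold change was −1.04 with a standard error of 0.547 (adjusted p = 0.316 in edgeR's QL test). It was −0.49 without WT replicate 1, −1.68 without KO replicate 1, −2.26 with the lymphocyte covariate and −0.47 in lane 4 alone, and the adjusted p of edgeR's QL test for the first 3 of these was 0.783, 0.126 and 0.549. *Slc7a2* (CAT2) and *Slc7a3* (CAT3) had log2 fold changes of −0.60 and 0.32.

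Heteromeric exchangers pair a light chain of the Slc7 family with a heavy chain that brings it to the membrane. *Slc7a5* (ENSMUSG00000040010, minus strand of chromosome 8 from 124405052 to 124431594), whose product LAT1 takes up leucine and other large neutral amino acids, had 438, 421 and 568 CPM in WT libraries and 274, 231, 222 and 322 CPM in KO libraries. All KO libraries were below all WT libraries. The log2 fold change of −0.86 (SE 0.194) did not reach the fold limit, with an adjusted p of 0.0808 in edgeR's QL test, 0.00418 in edgeR's exact test and an exact permutation p of 0.0286. Without WT replicate 3 the adjusted p of edgeR's exact test was 0.0963 at a log2 fold change of −0.71, and with library size as the only scaling the log2 fold change was −0.51.

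Its heavy chain *Slc3a2* had 278, 332 and 345 CPM in WT libraries and 299, 293, 381 and 468 CPM in KO libraries. KO replicates 1 and 2 lay inside the WT range and KO replicates 3 and 4 above it. For the heavy chain the log2 fold change was 0.18 (SE 0.207, adjusted p = 0.661 in edgeR's QL test).

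The ratio of *Slc7a5* to *Slc3a2* within a library does not depend on the scaling between libraries, and it was chosen after the values were seen. In TPM it was 1.33, 1.07 and 1.39 in WT libraries and 0.77, 0.663, 0.489 and 0.58 in KO libraries. *Slc7a5* was above *Slc3a2* in every WT library and below it in every KO library. The mean ratio was 1.26 ± 0.17 (SD, n = 3) in WT and 0.625 ± 0.12 (SD, n = 4) in KO libraries. No p-value is given for the ratio, because it was chosen on these values. The KO mean was 0.496 of the WT mean, between 0.457 and 0.531 when any 1 library was left out and 0.5 in lane 4 alone. The ratio does not show which of the 2 genes differed.

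**Figure D4:**
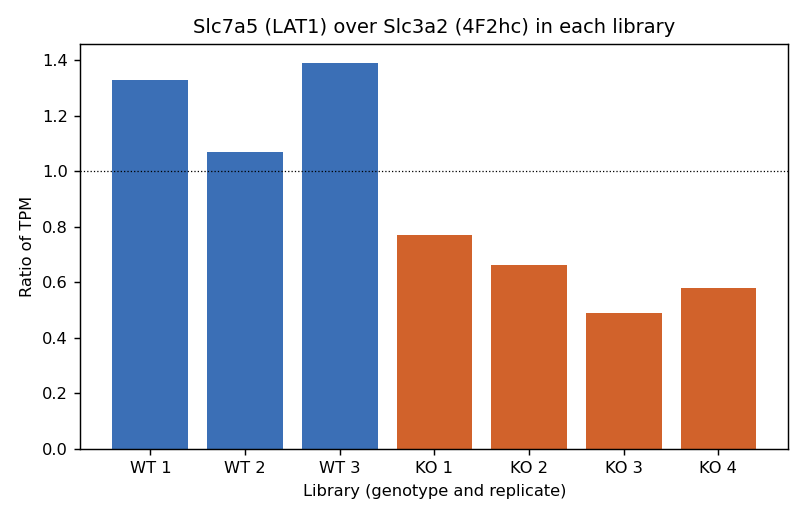
Ratio of *Slc7a5* to *Slc3a2* (TPM over TPM) in each WT (blue) and *Tardbp* KO (orange) library, with a dotted line at 1. The WT bars stand between 1.07 and 1.39 and the KO bars between 0.489 and 0.77.

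In each of the other light chains that pair with *Slc3a2* the groups overlapped. *Slc7a6* (y+LAT2) and *Slc7a7* (y+LAT1), which exchange cationic and neutral amino acids, and *Slc7a8* (LAT2), which carries neutral amino acids, had log2 fold changes of −0.09, −0.37 and −0.27, with adjusted p of 0.759, 0.347 and 0.698 in edgeR's QL test, and the signs of all 3 turned with library size as the only scaling. *Slc7a10* (Asc-1), a carrier of small neutral amino acids known from neurons and adipocytes, had 23.1, 39 and 36.9 CPM in WT and 31.4, 58.9, 34.9 and 36 CPM in KO libraries. KO replicate 2, its highest library, was also the library with the highest summed adipocyte markers, 5175 CPM against 2584 to 3639 CPM in the other 6 libraries. *Slc36a2*, another gene known from adipocytes, was likewise highest there, at 62.6 CPM against 12.5 to 41.3 CPM, and the part of adipocytes in these values was not tested. Exons of *Lrp3* cover 29.5% of the exon bases of *Slc7a10* on the opposite strand.

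*Slc7a11* (xCT), the cystine and glutamate exchanger, had 4.72, 1.72 and 2.22 CPM in WT libraries and 8.72, 1.37, 5.3 and 2.23 CPM in KO libraries. The groups overlapped, and KO replicates 1 and 3, the 2 highest, were those with the most lymphocyte marker counts. Its log2 fold change was 0.61 (SE 0.631), −0.67 with those 2 libraries left out and −1.35 with the lymphocyte markers as a covariate. Whether lymphocytes had a part in these values was not tested. *Slc3a1*, the second heavy chain rBAT, had only 2, 11 and 5 counts in WT and 26, 26, 17 and 9 counts in KO libraries, and its light chain *Slc7a9* had 2 counts in 1 library and 0 in the other 6. Summed over the light chains of *Slc3a2*, the level was 274 ± 60.4 TPM in WT and 263 ± 22.1 TPM in KO libraries.

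Of the Slc1 family, the ASCT exchangers had the highest levels. *Slc1a5* had 166, 372 and 273 CPM in WT libraries and 246, 394, 225 and 300 CPM in KO libraries, so all KO libraries but replicate 2 lay inside the WT range. Its log2 fold change of 0.11 (SE 0.294, adjusted p = 0.873 in edgeR's QL test) was −0.52 in lane 4 alone. *Slc1a4* had 101, 89.1 and 104 CPM in WT and 55.2, 93.1, 69.7 and 85.8 CPM in KO libraries, where KO replicate 2 overlapped with WT replicate 2 (adjusted p = 0.302 in the same edgeR test). The glutamate carriers *Slc1a1*, *Slc1a2* and *Slc1a3* had log2 fold changes of 0.52, 0.33 and −0.24.

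Proton-coupled carriers of the Slc36 family held the only member that was higher in every KO library than in every WT library. *Slc36a1* (ENSMUSG00000020261, plus strand of chromosome 11 from 55017852 to 55049832), the lysosomal carrier PAT1, had 17.9, 25.6 and 23.7 CPM in WT libraries and 28.4, 32.5, 33.5 and 31.9 CPM in KO libraries. The gap between the highest WT and the lowest KO library was small. The log2 fold change was 0.50 (SE 0.159, adjusted p = 0.135 in edgeR's QL test and 0.114 in its exact test, exact permutation p = 0.0286), and 0.34 in lane 4 alone. It lies in a row with *Slc36a2* and *Slc36a3*, within 19.3 kb and 6.76 kb of each other's ends. *Slc36a2* and *Slc36a4* had log2 fold changes of 0.56 and −0.28, and their groups overlapped.

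Facilitators of the Slc43 family, *Slc43a1* (LAT3), *Slc43a2* (LAT4) and *Slc43a3*, a purine nucleobase carrier, had log2 fold changes of 0.28, 0.36 and 0.37. *Slc43a2* varied widely, with 104, 303 and 150 CPM in WT libraries and 126, 226, 288 and 314 CPM in KO libraries. WT replicate 2 was near the highest KO libraries, and in lane 4 alone the log2 fold change was −0.01.

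In the Slc6 family, the neutral amino acid carriers had low levels per length. *Slc6a14* (ATB0,+), which takes up neutral and cationic amino acids, had 20, 32 and 24 counts in WT libraries and 202, 32, 74 and 54 counts in KO libraries. KO replicate 1 stood apart. Its log2 fold change was 1.48 (SE 0.653, adjusted p = 0.234 in edgeR's QL test), 0.43 with KO replicates 1 and 3 left out and −0.14 with the lymphocyte markers as a covariate. Here too the part of lymphocytes was not tested. *Slc6a19* (B0AT1), the neutral carrier of gut and kidney, had 10, 28 and 9 counts in WT and 43, 25, 137 and 75 counts in KO libraries, where KO replicate 2 overlapped with WT replicate 2 and the log2 fold change was 1.72 (SE 0.627, adjusted p = 0.166 in the same edgeR test). For *Slc6a19* it was 0.74 with the lymphocyte covariate and between 1.32 and 2.34 with 1 library left out. The lane 4 value was 0.88, which is not on the same scale, because log2(CPM + 1) shrinks differences at such low levels. *Slc6a12* (BGT1), a betaine carrier, had 2, 10 and 4 counts in WT and 13, 16, 14 and 12 counts in KO libraries. *Slc6a6* and *Slc6a8*, the carriers of taurine and creatine, had log2 fold changes of 0.26 and 0.03 with overlapping groups. The remaining 7 members of the family lay between −0.54 and 0.57.

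*Slc7a6os*, the member that is no transporter, had 32.6, 33.4 and 33.6 CPM in WT libraries and 27.8, 28.4, 28.9 and 30.5 CPM in KO libraries. The groups did not overlap, although the difference was small, with a log2 fold change of −0.20 (SE 0.115, adjusted p = 0.357 in edgeR's QL test, exact permutation p = 0.0286), and 0.17 with library size as the only scaling.

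The summed level of the members depended on the unit. In CPM it was 2636 ± 112 (SD, n = 3) in WT and 2180 ± 177 (SD, n = 4) in KO libraries, while in TPM, which is not scaled by TMM, it was 1021 ± 155 and 1276 ± 182. With library size as the only scaling, the median log2 fold change was 0.42 over all genes and 0.46 over the members.

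Other genes of amino acid supply were read from 5 lists, which are set beside the members without a test of the lists. Among all genes tested, 9.59% were lower and 9.07% higher in KO libraries without overlap. An unadjusted quasi-likelihood p under 0.05 was reached by 10.7% in each direction. EdgeR's exact test called 1.43% lower and 1.04% higher, and DESeq2's Wald test 1.62% and 1.68%. All 20 cytosolic aminoacyl-tRNA synthetases, the enzymes that load amino acids onto tRNA, had log2 fold changes below 0, with a median of −0.63. In 10 of them every KO library lay below every WT library, 14 had an unadjusted quasi-likelihood p under 0.05, and 1, *Farsb*, was called by edgeR's exact test. *Farsb*, a subunit of the phenylalanine enzyme, had 63.6, 43.1 and 53.9 CPM in WT and 30.1, 21.5, 24.6 and 29.9 CPM in KO libraries. These groups did not overlap, and the log2 fold change was −1.01 (adjusted p = 0.0687 in edgeR's QL test and 0.000358 in its exact test). With library size as the only scaling the median of the list was −0.25, against 0.42 over all genes, and in lane 4 alone it was −0.40.

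**Figure D5:**
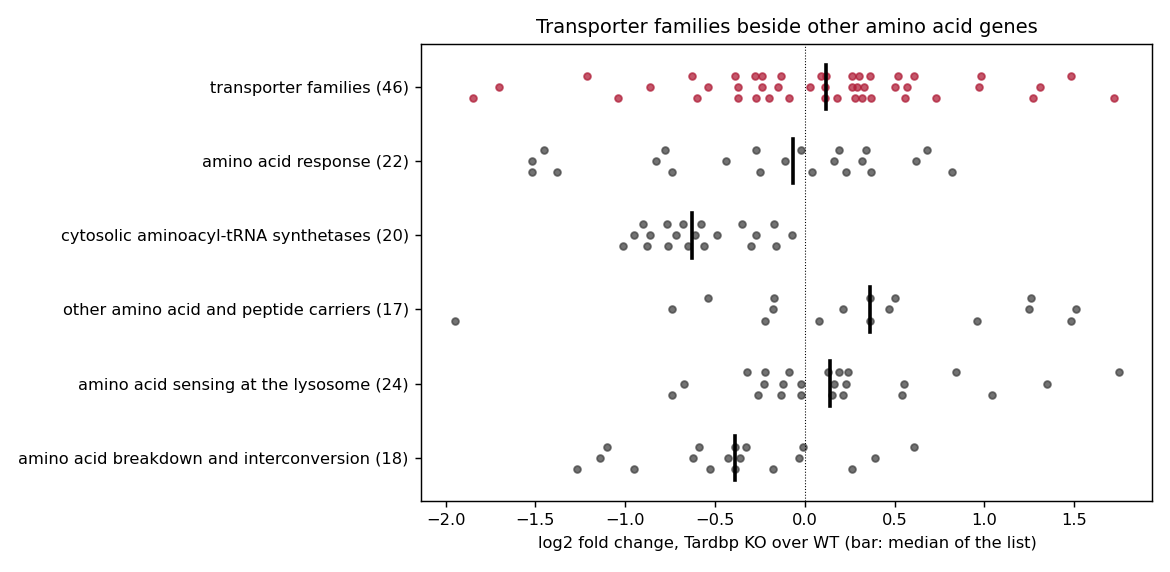
Fitted log2 fold change (*Tardbp* KO over WT) of the 46 transporter family members (red) and of the tested genes of 5 other lists (grey, list size in parentheses), with black bars at the medians. All 20 cytosolic aminoacyl-tRNA synthetases lie below 0, while the members spread to both sides of a median of 0.11.

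The 22 genes of the amino acid response had a median log2 fold change of −0.06, with 12 below 0 and 10 above. At an unadjusted p under 0.05 in edgeR's QL test 6 were lower and 1 higher, against 10.7% of all genes each way. *Aldh18a1*, which starts proline synthesis, was the 1 gene of this list called by edgeR's exact test, with 244, 108 and 156 CPM in WT and 94.6, 44.1, 44.8 and 52.8 CPM in KO libraries and a log2 fold change of −1.52 (adjusted p = 0.08 in edgeR's QL test and 0.00145 in the exact test). No KO library reached the lowest WT library. The factor *Atf4* itself had a log2 fold change of −0.44 (adjusted p = 0.254 in edgeR's QL test). *Ddit3*, a stress factor downstream of it, had one of 0.68 (adjusted p = 0.158 in that test). Larger values in the list were −1.52 for *Cth*, −1.45 for *Pycr1* and −1.38 for *Psat1* (adjusted p = 0.117, 0.175 and 0.128 in that test). The highest of the 10 above 0 was 0.82, for *Atf3* (adjusted p = 0.319 in that test). In *Cth*, *Pycr1*, *Psat1* and *Atf3* the groups overlapped. All of these genes were chosen after their values were seen.

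Of 18 genes of amino acid breakdown and interconversion, 15 had log2 fold changes below 0, with a median of −0.39. At an unadjusted p under 0.05 in edgeR's QL test 8 were lower and 1 higher, against 10.7% of all genes each way. EdgeR's exact test called 2 of them lower, *Dbt*, a subunit of the branched-chain keto acid dehydrogenase, and *Gpt2*, an alanine aminotransferase. *Dbt* had 71.4, 29.4 and 55.9 CPM in WT and 19.5, 25.3, 22.2 and 19.6 CPM in KO libraries, and *Gpt2* had 215, 150 and 201 CPM in WT and 54.7, 119, 83.2 and 85.3 CPM in KO libraries. Neither overlapped between genotypes, and the log2 fold changes were −1.27 and −1.14 (adjusted p = 0.0755 and 0.0796 in edgeR's QL test). With library size as the only scaling the list had a median of −0.03.

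Among 17 tested carriers outside the 7 families, 6 had log2 fold changes below 0 and 11 above, with a median of 0.36. At an unadjusted p under 0.05 in edgeR's QL test 3 were lower and 5 higher, against 10.7% of all genes each way. *Slc25a29*, a mitochondrial carrier of basic amino acids, was called lower by edgeR's exact test, with 20.1, 8.25 and 26 CPM in WT and 6, 4.31, 4.75 and 3.69 CPM in KO libraries and a log2 fold change of −1.95 (adjusted p = 0.0697 in edgeR's QL test and 0.000127 in the exact test). Its groups did not overlap, and DESeq2's Wald test also called 1 carrier higher, *Slc15a3*, a lysosomal histidine and peptide carrier, at a log2 fold change of 1.25. Of 24 tested genes of amino acid sensing at the lysosome, 11 were below 0 and 13 above, with a median of 0.14, and edgeR's exact test called 0 in either direction. DESeq2's Wald test called 2 of them higher, and edgeR's QL test gave 2 lower and 4 higher genes at an unadjusted p under 0.05, where 10.7% of all genes tested passed in each direction. The 2 called by DESeq2 were *Rragd*, a small GTPase that recruits mTORC1 to the lysosome, with 2.1, 8.01 and 3.49 CPM in WT and 12.4, 11.1, 13.9 and 24 CPM in KO libraries, and *Sesn3*, an inhibitor of the same pathway, with 23.8, 44.1 and 23.5 CPM in WT and 51.8, 56.5, 83.2 and 58.5 CPM in KO libraries. In both genes all KO libraries lay above all WT libraries, with log2 fold changes of 1.75 and 1.04 (adjusted p = 0.0955 and 0.0934 in edgeR's QL test).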

How the data were processed

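RNA of whole mammary glands at L1 was sequenced by the authors as paired-end reads from an Illumina TruSeq library kit. Per the study's methods reads were mapped to NCBIM37 with STAR 2.4.2a, while the submitters' processing notes list STAR 2.5.2a and mm9. The deposited values are whole-number counts per gene, made by the authors with featureCounts 1.4.6-p5 and not normalized. The command line in the file header sets no option for strand, pairs or multimapping reads, so mates were counted separately (42.6% of nonzero counts were odd), reads of both strands were pooled, and reads over more than 1 gene were left out. It names 1 further library, not analysed here. All 37310 genes have the lengths of GENCODE vM1.

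Groups are the genotypes of the labels (3 WT, 4 *Tardbp* KO). The filters of the study's methods took out 37 mitochondrial genes, 575 ribosomal genes and every gene that did not reach 5 counts in 4 or more of 7 libraries. The 17175 left were fitted with edgeR 4.0.16 (TMM, quasi-likelihood test) in R 4.3.3 and adjusted together by Benjamini-Hochberg, and calls needed an adjusted p under 0.01 together with a log2 fold change beyond 1 in either direction. The study names edgeR but not the test, so edgeR's exact test and DESeq2 1.42.0 were run with the same limits. The fit had a common dispersion of 0.0921 and a prior of 3.91 degrees of freedom. For single members, log2(CPM + 1) was also compared by exact permutation of the libraries (2-sided, on the size of the difference in means). TPM was computed over the tested genes from the file's lengths. The tests were checked on simulated data. Further steps used scipy 1.17.1, numpy 2.4.6 and pandas 2.3.3 under Python 3.11.15.

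The members and gene lists were chosen with earlier results of these data known. Members were named if they were among the 12 highest in TPM, called by the exact test, among the 10 largest log2 fold changes, without overlap between genotypes, or a heavy chain or its light chain partner, and other members are given by counts and ranges or as single values. The *Slc7a5* to *Slc3a2* ratio was chosen after the values were seen. Alternatives were other scalings, filters, tests, thresholds, a block by replicate number, lane 4 only, a lymphocyte covariate and each library left out in turn. Leaving out KO replicates 1 and 3 together, and all alternatives for the gene lists, were chosen after seeing the data. No 2 libraries of the same genotype agreed within sampling noise.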

Additional observations from a re-analysis of the deposited data

Results flagged for a closer look

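In 4 members, 1 of the 4 *Tardbp* KO libraries lay far from the other 3, with a gap to the nearest library that, as a share of the range of the group, was above Dixon's 95% critical value for 4 samples. Chance alone flags about 1 in 20 groups. *Slc7a10* had 58.9 CPM in KO replicate 2 and between 31.4 and 36 CPM in the other KO libraries, with a WT mean of 33 CPM. Summed adipocyte markers were also highest in that library. In KO replicate 1, *Slc6a9*, the glycine carrier GlyT1, had 6.84 CPM against 2.28 to 2.85 CPM in the other KO libraries and a WT mean of 4.28 CPM. *Slc6a14* had 5.34 CPM in the same library against 0.733 to 1.51 CPM, with a WT mean of 0.803 CPM. *Slc6a13*, the GABA and taurine carrier GAT2, had 2.64 CPM there against 0.245 to 0.531 CPM, with a WT mean of 1.22 CPM. Exons of another gene on the opposite strand cover 29.5% of the exon bases of *Slc7a10*. For *Slc6a9*, a gene model named *Ccdc24* on the opposite strand covers 27.8% of the exon bases, and another of that name covers 7.29%.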

How the results depend on the processing

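The quasi-likelihood count of members called was 0 under the other scalings and filters and with any 1 library left out. This 0 does not set the members apart, because these fits called 0 of all genes tested, or 1 of 24251 without a low-count filter. The count was 3 with edgeR's exact test or DESeq2's Wald test, which called 425 and 567 of all genes. At an adjusted p under 0.10 without a fold limit it was 4, all lower, where 3.2% of all genes were lower and 2.21% higher. The exact test's count of 3 was 7 at that last threshold, for which the share over all genes is not given here. It was 1 (*Slc38a3*) with KO replicates 1 and 3 left out, when 117 of all genes were called. With any 1 library left out it lay between 2 and 4, and the exact test's count over all genes between 120 and 816. The count at an unadjusted p under 0.05 (10) was 16 with library size as the only scaling, where 33.7% of all genes passed, and between 7 and 16 with 1 library left out, the highest without WT replicate 2 (25.4% of all genes). With library size only, 3 members were lower and 10 higher without overlap, against 2.56% and 25.7% of all genes. With KO replicates 1 and 3 left out these counts were 10 and 5, against 15.5% and 16% of all genes, and with any 1 library left out they lay between 5 and 9 and between 1 and 8, the highest again without WT replicate 2 (17.6% and 19.6% of all genes). The median over the members (0.11) was 0.46 with library size only, −0.02 in lane 4 alone and between 0.0092 (without KO replicate 2) and 0.21 (without WT replicate 2) with 1 library left out.

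Library size as the only scaling gave list medians of 0.31 (amino acid response), −0.25 (tRNA synthetases), 0.70 (other carriers), 0.51 (sensing) and −0.03 (breakdown). Lane 4 alone gave −0.23 for the response, 0.22 for other carriers, −0.10 for sensing and −0.28 for breakdown. With KO replicates 1 and 3 left out the medians were −0.36 for the response, 0.48 for other carriers and 0.05 for sensing, and with the lymphocyte covariate −0.57 for the response, 0.05 for sensing and −0.17 for breakdown. With 1 library left out the medians lay between −0.25 and 0.01 for the response, between 0.23 and 0.43 for other carriers and between 0.03 and 0.13 for sensing. The causes of these shifts were not tested.

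None of the following values passed the adjusted limits of edgeR's quasi-likelihood test, and the values of lane 4 alone have no test. Log2 fold changes changed sign in lane 4 alone for *Slc1a5* (−0.52), *Slc43a2* (−0.01), *Slc7a10* (−0.14), *Slc6a8* (−0.05), *Slc7a7* (0.04), *Slc7a8* (0.22) and *Slc3a1* (−0.04). With library size only they did so for *Slc1a4* (4.7e-05), *Slc7a6os* (0.17), *Slc7a7* (0.03), *Slc7a6* (0.28) and *Slc7a8* (0.15). Leaving out 1 library at a time gave values on both sides of 0 for *Slc1a5* (−0.15 to 0.41, and −0.08 without KO replicate 2), *Slc6a6* (−0.00072 to 0.50), *Slc6a8* (−0.05 to 0.10, and −0.04 without KO replicate 4) and *Slc7a8* (−0.55 to 0.04). The lymphocyte covariate did so for *Slc7a8* (0.0034), *Slc38a1* (−0.21), *Slc6a14* (−0.14) and *Slc7a11* (−1.35), and leaving out KO replicates 1 and 3 for *Slc7a11* (−0.67).

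Labels number the replicates in both genotypes. Same-numbered libraries deviated together with correlations of 0.437, 0.0745 and −0.0837, so the numbers were not taken to pair the libraries. With the replicate block the count called was 0 over the members and 0 over all genes tested. The median over the members was 0.14 and that over other carriers 0.24, and *Slc6a8* had −0.02. The adjusted p of edgeR's quasi-likelihood test with this block was 0.033 for *Slc38a3*, 0.0314 for *Slc7a4*, 0.042 for *Slc7a1*, 0.0514 for *Slc7a5* and 0.0874 for *Slc38a2*.

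Counts on genes cannot show exon use, proteins or transport. Of the lanes, 1 held both genotypes, with 1 WT library. Members under 1 TPM had at most 142 counts a library on average, and 1 of these 14, *Slc6a19*, had an unadjusted p under 0.05 in edgeR's quasi-likelihood test.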
